A study of Mus musculus with 4 samples.

Results

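9 genes of retinoic acid handling were followed in E15 cochleas of *Meis2* flox/flox; *Pax2* Cre/+ mutants and of wild-type embryos. They are *Stra6*, *Aldh1a1*, *Aldh1a2*, *Aldh1a3*, *Crabp1*, *Crabp2*, *Cyp26a1*, *Cyp26b1* and *Rarb*. The rule that chose them goes by their role and uses no measured value, but earlier results of these data were known when it was made. Each gene was read by 1 probe set, so that 9 of 35556 probe sets and 9 of 19938 named genes are described. Whole cochleas of embryos at E15 were used, with 2 arrays of wild type (replicates 2 and 3) and 2 arrays of the mutant (replicates 1 and 2). The mutants carried floxed *Meis2* alleles and a *Pax2*-driven Cre, which acts in the early otic placode and vesicle, while the wild-type embryos are described by genotype only. A whole cochlea also holds mesenchyme, cartilage and vessels, which do not arise from that epithelium. Signals are the deposited log2 values of the Mouse Gene 1.0 ST Array, computed with RMA (background correction, normalization between arrays and 1 signal per probe set). Differences are mutant minus wild type on that log2 scale, tested with limma and adjusted with the Benjamini-Hochberg method over all probe sets, with a threshold of 0.05, and are given with their standard error (SE) or confidence interval (CI). No source says whether arrays of 1 genotype came from separate animals, so the p-values measure only the spread between these arrays, and in a whole organ fewer cells of a type cannot be told apart from less RNA per cell.

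Retinoic acid is a small ligand made from vitamin A inside cells. Retinol enters through the receptor Stra6, is oxidized to retinal and then by retinaldehyde dehydrogenases (Aldh1a enzymes) to retinoic acid, which Crabp proteins bind in the cytoplasm, Cyp26 enzymes destroy, and the nuclear receptors Rar and Rxr read at DNA. In the inner ear, sources and sinks of retinoic acid pattern the otic vesicle, and both an excess and a lack of it malform the ear.

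Of all probe sets, 13268 (37.3 percent) passed the threshold, and of 19938 genes 40.4 percent did, so a call is common on these arrays. Of the genes, 24.2 percent were higher and 16.2 percent lower in mutants. With another test, the paper reports far fewer differing transcripts, nearly all of them lower in mutants. The probe sets split into 7695 higher and 5573 lower, and into 5062 higher and 6439 lower once each array was set to the same median. The median difference over all genes was 0.13, and 80.4 percent of genes had no overlap between the genotypes. The targeted gene *Meis2* was not lower in mutants, with signals of 9.64 and 9.38 in the wild type against 9.61 and 9.80 (difference 0.19, limma adjusted p = 0.284). Exons that the deletion leaves intact may be among those its probe set reads, but this was not tested. The genotype labels are thus not borne out by this signal. *Xist* was at 5.54 in wild-type replicate 2, 11.51 in wild-type replicate 3 and 11.83 and 11.84 in the mutants, so that the arrays without wild-type replicate 2 all carried a high *Xist* signal. All 15 measured markers of the cochlear duct epithelium lay on all arrays above the 95th percentile of 1210 odorant and vomeronasal receptor probe sets, genes that a cochlea is not known to use. That percentile was 5.55 and 5.59 on the wild-type and 5.90 and 5.90 on the mutant arrays, and all 9 retinoic acid genes also lay above it, *Aldh1a1* and *Cyp26a1* only narrowly so in mutants.

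Of the 9 genes, 2 were higher in mutant cochleas (*Stra6* and *Cyp26b1*), 2 were lower (*Aldh1a1* and *Crabp1*) and 5 did not pass the test. This is 44.4 percent called against 40.4 percent of all genes, so the share is near the background, and their median difference of 0.12 was close to that of all genes. The groups did not overlap for 5 of the 9 genes, against 80.4 percent of all genes. Without wild-type replicate 2, the array with the low *Xist* signal, *Cyp26a1* joined the called genes, and without either mutant array *Aldh1a1* left them. A fit without a wild-type array does not use the spread between the wild-type arrays, which for *Cyp26a1* was wider than that between the mutant arrays. With all arrays, *Stra6*, the only uptake gene here, and the breakdown gene *Cyp26b1* rose, and the synthesis gene *Aldh1a1* and the binding gene *Crabp1* fell. The other breakdown gene *Cyp26a1*, the other binding gene *Crabp2*, the synthesis genes *Aldh1a2* and *Aldh1a3* and the receptor gene *Rarb* did not pass the test. No direction of a role as a whole is read from these calls.

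*Stra6*, the membrane receptor that takes up retinol from its plasma carrier, was the gene with the largest increase of the 9. Its log2 signal was 8.72 and 8.65 in the wild type against 9.91 and 9.90 in mutants. Both mutant arrays lay above both wild-type arrays, and the arrays of each genotype differed by less than 0.1. *Stra6* rose by 1.22 (SE 0.08, 95% CI 1.01 to 1.42, limma adjusted p = 0.00272), which is 2.32-fold (2.01 to 2.68). Only 77 of the 19938 genes had a larger increase. The call remained when any of the 4 arrays was left out, with differences of 1.18 to 1.25 and adjusted p of 0.00746 to 0.0254.

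The Aldh1a enzymes oxidize retinal to retinoic acid, and only *Aldh1a1* passed the test. Its signal was 6.98 and 7.79 in the wild type against 5.96 and 5.96 in mutants. Both wild-type arrays were higher than the mutant arrays, but they differed from each other by more than those of any other of the 9 genes. *Aldh1a1* fell by 1.42 (SE 0.27, 95% CI -2.11 to -0.73, limma adjusted p = 0.0166), so that the signal was 2.68-fold lower in mutants (1.66 to 4.33). Its call ended without *Meis2* mutant replicate 1 (adjusted p = 0.0697) or replicate 2 (adjusted p = 0.0745), while the size stayed at -1.42. Without a wild-type array the size was -1.82 or -1.02. The call remained, but such a fit has only the mutant arrays to measure the spread between replicates. These were nearly equal for *Aldh1a1*, and the wide wild-type spread is left out, so the kept call is no sign of stability. *Aldh1a7*, a closely related mouse copy of *Aldh1a1*, had signals of 6.27 and 6.44 in the wild type and a mutant mean of 5.91 (SD 0.125, n = 2) and fell by 0.44 (adjusted p = 0.0342, up to 0.152 without an array). On mutant replicate 1 *Aldh1a7* lay below the receptor percentile of 5.90, so its difference is taken against a signal near background. Whether probes of either copy also read the other was not tested.

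*Aldh1a2*, the main source of retinoic acid in embryonic mesoderm, had signals of 8.11 and 8.43 in the wild type against 7.74 and 8.13 in mutants. The groups overlapped, and the difference was -0.33 (95% CI -0.79 to 0.13, limma adjusted p = 0.195). *Aldh1a3*, which the otic epithelium is known to express, was at 8.48 and 8.64 in the wild type against 8.57 and 9.06 in mutants. Here too the groups overlapped, with mutant replicate 2 highest, and the difference was 0.25 (95% CI -0.21 to 0.72, limma adjusted p = 0.305). The intervals of both genes include 0 and leave room for a change of about the size seen for *Cyp26b1*.

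*Crabp1*, which holds retinoic acid in the cytoplasm and is abundant in cranial neural crest and mesenchyme, was at 11.50 and 11.58 in the wild type against 10.77 and 10.89 in mutants. Both mutant arrays lay below both wild-type arrays, and *Crabp1* fell by 0.71 (SE 0.09, 95% CI -0.94 to -0.48, limma adjusted p = 0.00657), a 1.64-fold lower signal (1.39 to 1.92). Leaving out any array kept the call (adjusted p 0.0160 to 0.0430). *Crabp2*, which delivers retinoic acid to its nuclear receptors, was at 9.66 and 9.79 in the wild type against 9.81 and 9.93 in mutants. Its groups did not overlap, but the gap was smaller than the spread within a genotype, and the difference was 0.14 (95% CI -0.10 to 0.39, limma adjusted p = 0.274).

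Among the enzymes that break down retinoic acid, *Cyp26b1*, known for the low retinoic acid zone at the center of vestibular sensory organs, rose. It was at 8.43 and 8.36 in the wild type against 9.08 and 9.06 in mutants. The mutant arrays were both higher, and the increase was 0.67 (SE 0.08, 95% CI 0.47 to 0.88, limma adjusted p = 0.00570), or 1.59-fold (1.38 to 1.84). The call remained without any of the arrays (adjusted p 0.0143 to 0.0429). *Cyp26a1*, the enzyme that retinoic acid itself induces in many tissues, was at 5.99 and 6.48 in the wild type against 6.07 and 5.92 in mutants. The groups overlapped at low signal, and the difference was -0.24 (95% CI -0.71 to 0.23, limma adjusted p = 0.330). Wild-type replicate 3 alone set this value, since without it the difference was 0.01 (adjusted p = 0.972), and without wild-type replicate 2 it was -0.49 (adjusted p = 0.0427). *Cyp26c1*, the remaining gene of this family, was at 6.58 and 6.57 in the wild type against 6.69 and 6.73 in mutants (difference 0.14, adjusted p = 0.218).

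*Rarb*, a nuclear receptor whose own gene responds to retinoic acid, was at 10.14 and 10.34 in the wild type against 10.39 and 10.33 in mutants. The groups overlapped, and the difference was 0.12 (95% CI -0.15 to 0.38, limma adjusted p = 0.389). The upper limit of 0.38 is below the increase of *Stra6* or *Cyp26b1*.

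**Figure D1:**
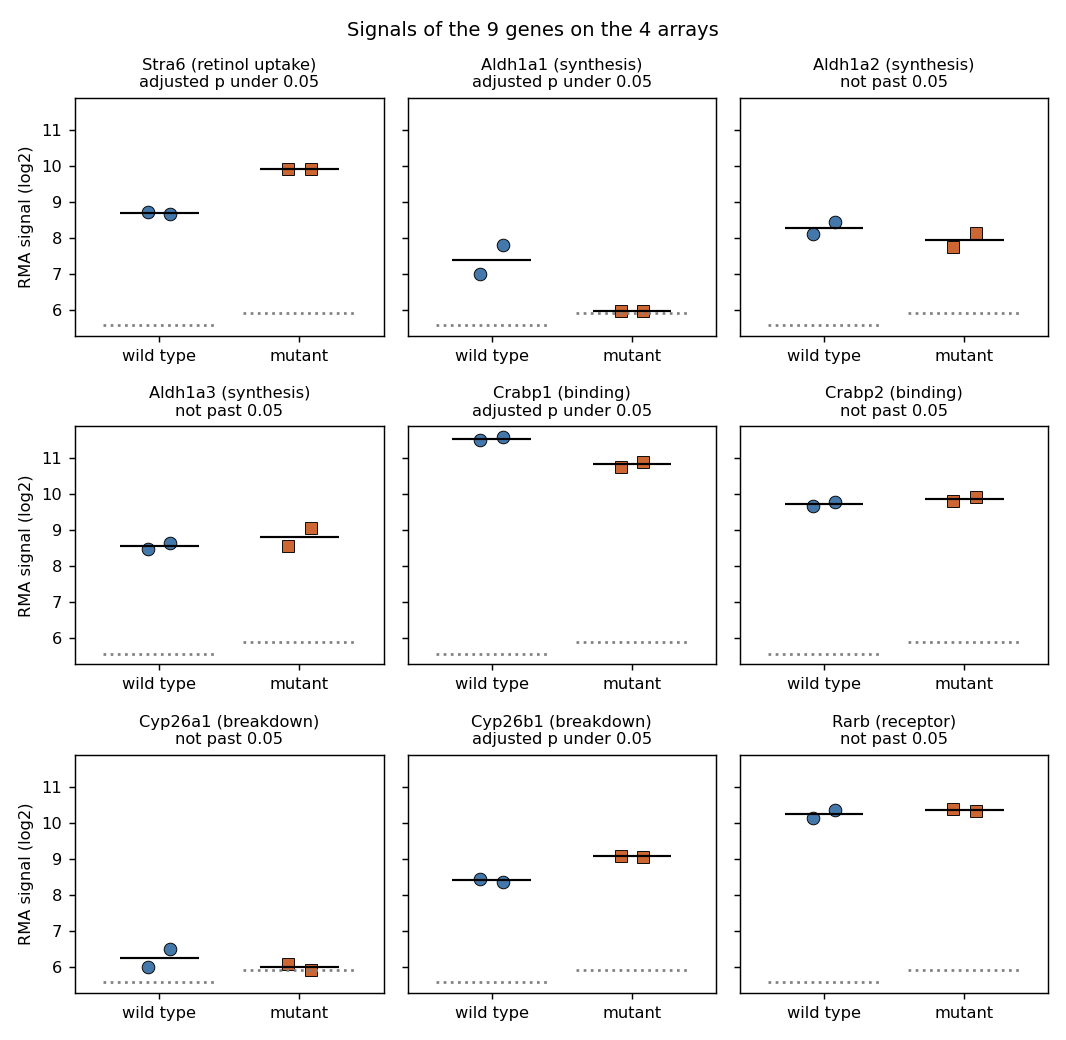
RMA signal on the log2 scale (y axis) of the 9 genes on the 2 wild-type arrays (circles) and the 2 mutant arrays (squares), with the mean of each genotype (black lines) and the 95th percentile of odorant and vomeronasal receptor probe sets (dotted, mean of the 2 arrays). *Stra6* and *Cyp26b1* lie higher and *Aldh1a1* and *Crabp1* lower in mutants, and heights are to be compared within a panel, since probe sets of different genes respond differently.

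**Figure D2:**
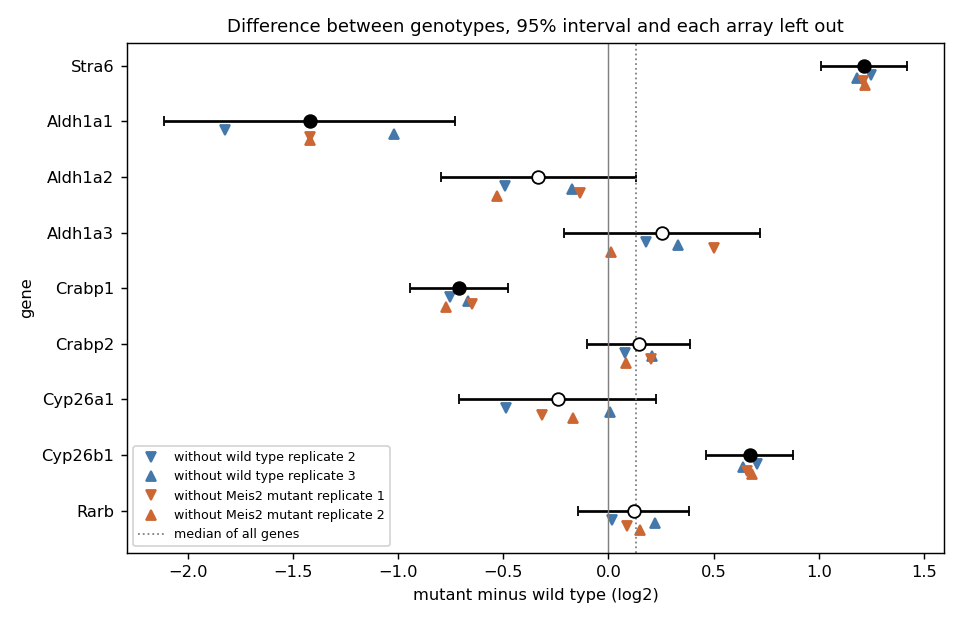
Difference in log2 signal, mutant less wild type (x axis), of the 9 genes (y axis), with the 95% CI from limma (bars), filled points where the adjusted p was under 0.05, and the difference without each array (triangles). The triangles of *Stra6* (1.18 to 1.25) stay close together, those of *Aldh1a1* spread from -1.82 to -1.02, and those of *Cyp26a1* reach 0.01.

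The 250 bases upstream of the RefSeq start sites (GRCm38.p6) are shown for *Rarb* and *Cyp26a1*, because these genes report retinoic acid in many tissues through an element close to the start, and for the more distal start of *Aldh1a1*, because it holds the Meis motif. Capitals mark direct repeats of a hexamer (AGGTCA, its variant AGTTCA, its variant GGGTCA or its variant GGTTCA) with 5 bases between them, or the Meis motif TGACAG, searched on both strands.
Rarb, chr14:16575477-16575726, minus strand: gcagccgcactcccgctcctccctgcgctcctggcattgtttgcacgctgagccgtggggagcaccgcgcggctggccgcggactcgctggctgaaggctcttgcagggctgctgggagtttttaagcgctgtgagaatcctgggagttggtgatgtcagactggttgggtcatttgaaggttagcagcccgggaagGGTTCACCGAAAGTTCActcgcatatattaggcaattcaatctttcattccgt
Cyp26a1, chr19:37697558-37697807, plus strand: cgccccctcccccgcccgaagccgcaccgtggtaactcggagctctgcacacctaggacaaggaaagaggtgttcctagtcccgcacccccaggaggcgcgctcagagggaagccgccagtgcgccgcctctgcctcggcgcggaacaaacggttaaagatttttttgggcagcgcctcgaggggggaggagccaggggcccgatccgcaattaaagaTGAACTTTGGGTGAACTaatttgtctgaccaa
Aldh1a1, chr19:20492333-20492582, plus strand: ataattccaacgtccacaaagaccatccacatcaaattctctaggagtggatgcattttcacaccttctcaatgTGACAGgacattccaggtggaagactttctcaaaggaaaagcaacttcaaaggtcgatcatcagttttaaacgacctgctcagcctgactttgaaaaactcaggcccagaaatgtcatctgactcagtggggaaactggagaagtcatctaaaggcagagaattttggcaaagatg

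The *Rarb* repeat, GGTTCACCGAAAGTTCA, spans bases 53 to 37 upstream of the start. That of *Cyp26a1* lies on the opposite strand, where it reads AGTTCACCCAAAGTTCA, 32 to 16 bases upstream. Such a repeat was found upstream of 2 of the 7 genes with a RefSeq window (11 windows in all), against 0.104 percent of 27025 genes. Both genes are known for an element close to the start, as said above, so the difference in share is no result of this search. The same repeat with 2 bases between the hexamers was in none of the 7 and in 0.204 percent of all genes, and a single hexamer, which the repeats contain, was in 3 of the 7 and in 41.8 percent of all. TGACAG was upstream of *Aldh1a1* alone, 176 to 171 bases from its distal start, and of 18.0 percent of all genes. The genes with a repeat, *Rarb* and *Cyp26a1*, did not pass the test. Of the genes that did, *Stra6*, *Crabp1* and *Cyp26b1* held none of these letters in their windows, and *Aldh1a1* held TGACAG and a single hexamer. *Aldh1a2*, which did not pass, also held none, and *Aldh1a3* and *Crabp2* had no window. A match is a description of the letters only, and distant elements were not searched.

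Of 81 other genes of the pathway, 74 had a probe set of their own, of which 28 were higher and 8 lower in mutants and 38 did not pass the test. That is 48.6 percent called against 40.4 percent of all genes, with a median difference of 0.23 against 0.13. After each array was set to the same median, 14 were higher and 9 lower. Of the 28 higher genes, 7 did not lie above the percentile of the odorant and vomeronasal receptors on all arrays, a percentile that was itself higher in mutants, and of the 48 genes left by a filter on dim probe sets 20 were higher and 8 lower. The calls depended on single arrays, since of the 36 called genes 5 and 8 were still called without mutant replicate 2 and mutant replicate 1, and 20 and 15 without wild-type replicate 2 and wild-type replicate 3. Of the 36 genes, *Rara*, *Rdh14* and *Fabp5* were called without each array in turn.

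Of the 5 nuclear receptor genes beside *Rarb*, 4 were higher and none was lower, with a median of 0.52, where 24.2 percent of all genes were higher and 16.2 percent lower. *Rara*, the most widespread retinoic acid receptor, was at 8.89 and 8.72 in the wild type against 9.71 and 9.91 in mutants and rose 2.01-fold (95% CI 1.64 to 2.46, limma adjusted p = 0.00521). The signals of the Rxr genes, which encode the partners of Rar on DNA, were also higher, and *Rxra* rose by 0.58, *Rxrb* by 0.52 and *Rxrg* by 0.52 (adjusted p = 0.0104, 0.0166 and 0.0122). The calls of all 3 Rxr genes ended without either mutant array (adjusted p up to 0.0936), and that of *Rxrb* also without wild-type replicate 3 (0.0524). *Rarg* differed by 0.27 and did not pass the test (adjusted p = 0.0568).

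Of 13 measured genes of retinoid transport and storage, 6 were higher and none was lower, or 46.2 percent called, near the 40.4 percent of all genes. 1 of the 6 did not lie above the receptor percentile on all arrays. *Ttr*, transthyretin, which carries retinol-binding protein in plasma and is made in quantity by the choroid plexus, was at 7.78 and 8.26 in the wild type against 9.07 and 10.04 in mutants. It rose by 1.53 (SE 0.35, adjusted p = 0.0278), and the call ended without wild-type replicate 2 (0.0832) or mutant replicate 2 (0.0601). *Rlbp1*, a retinal binding protein, rose by 0.69 (adjusted p = 0.00973, up to 0.0526 without an array). *Rbp4*, the plasma carrier that Stra6 binds, differed by -0.31 (adjusted p = 0.107), and *Lrat*, which stores retinol as an ester, by 0.04 (adjusted p = 0.788).

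Of 20 genes listed for the turnover of retinol and retinal, 6 were higher and 4 lower, against 24.2 percent higher and 16.2 percent lower of all genes. 5 of the 6 higher genes, all but the retinol saturase *Retsat*, did not lie above the receptor percentile on all arrays, whereas the 4 lower genes did. *Rdh14*, a retinol dehydrogenase, was at 7.27 and 7.60 in the wild type against 6.15 and 6.11 in mutants and fell by 1.31 (SE 0.13, adjusted p = 0.00430). *Adh5*, an alcohol dehydrogenase best known for formaldehyde removal, fell by 0.62 and *Dhrs4* fell by 0.53 (adjusted p = 0.0198 and 0.0232). *Rdh10*, the enzyme that makes most retinal in the embryo, differed by 0.20 (adjusted p = 0.139) and *Dhrs3*, which turns retinal back to retinol, by 0.01 (adjusted p = 0.955).

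*Fabp5*, a fatty acid binding protein that can also carry retinoic acid, had the largest decrease of the 74 genes. Its brighter probe set was at 9.22 and 9.53 in the wild type against 7.72 and 7.74 in mutants and fell by 1.64 (SE 0.12, adjusted p = 0.00296), and its second probe set fell by 2.02 (adjusted p = 0.00334). *Fabp5* has processed copies in the genome, and whether the probe sets read them was not tested.

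Of 20 measured genes that respond to retinoic acid, 6 were higher and 1 was lower, or 35.0 percent called, below the 40.4 percent of all genes. *Tgm2*, a transglutaminase, was at 9.67 and 9.58 in the wild type against 10.34 and 10.21 in mutants and rose by 0.65 (adjusted p = 0.00828, 0.0513 without mutant replicate 1). *Hoxa4* rose by 0.56 and *Tbx1*, an otic transcription factor, by 0.45 (adjusted p = 0.0170 and 0.0307), while *Foxc1*, a mesenchymal transcription factor, fell by 0.43 (adjusted p = 0.0307). Of 13 co-regulators of these receptors, 6 were higher and 1 was lower, or 53.8 percent called against 40.4 percent of all genes, among them the arginine methyltransferase *Carm1*, which rose by 0.73 (adjusted p = 0.00831), and the corepressor subunit *Tbl1xr1*, which fell by 0.54 (adjusted p = 0.0142).

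**Figure D3:**
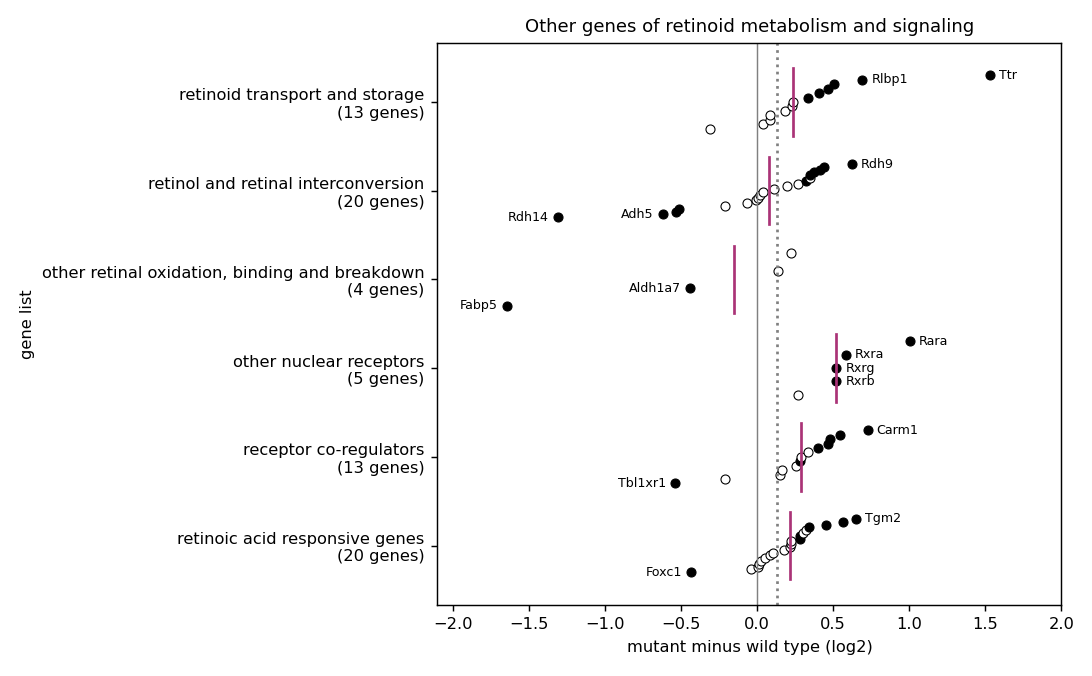
Difference in log2 signal, mutant less wild type (x axis), of the other measured genes of retinoid metabolism and signaling, in rows by role (y axis, sizes in brackets). Each point is a gene, filled where the adjusted p from limma was under 0.05, vertical bars are list medians and the dotted line is the median of all genes (0.13). *Fabp5* (-1.64) and *Rdh14* (-1.31) lie lowest and *Ttr* (1.53) and *Rara* highest.

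The share of called markers of the cell types that a whole cochlea may hold lay on either side of the 40.4 percent of all genes. Of 15 cochlear duct epithelium genes 4 were higher and 4 lower (53.3 percent), of 10 hair cell genes 5 were higher and 1 was lower, of 6 glia genes 1 was higher and 2 were lower, and of 11 periotic mesenchyme genes 4 were higher and 2 lower (54.5 percent). Of 12 ganglion neuron genes none was higher and 6 were lower, with a median signal of 8.62 and 8.90 on wild-type and 8.19 and 8.23 on mutant arrays. Of 12 skeletal muscle markers 9 were higher, with medians of 5.92 and 6.19 against 6.67 and 7.15, and 7 of the 12 lay above the receptor percentile on all arrays. The vestibular organs (4 higher of 9, none lower, 44.4 percent) and the meninges and choroid plexus, whose markers include *Ttr* and *Aldh1a2* (3 higher and 1 lower of 10), were near the share of all genes. Cartilage had 3 of 8 higher and none lower, melanocytes 1 of 7 higher, macrophages 1 higher and 1 lower of 8, and erythroid cells 2 higher and 1 lower of 3. None of 8 endothelial markers was called by limma, and 4 of them had an unadjusted p under 0.05. The part of any of these cells in the differences of the retinoic acid genes was not tested.

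The genes whose profile over the 4 arrays was closest to that of *Stra6*, by Euclidean distance between log2 signals centered on their mean, were *Snorc* (distance 0.043), *Extl1* (0.050) and *Tmem8b* (0.064). *Snorc*, a cartilage proteoglycan, rose by 1.21, *Extl1*, a glycosyltransferase, by 1.23 and *Tmem8b* by 1.15 (adjusted p = 0.00276, 0.00283 and 0.00281). Closest to *Aldh1a1* were *Npl* (0.110), an enzyme of sialic acid breakdown, *Taf13* (0.127), a subunit of the general transcription factor TFIID, and *Xpa* (0.164), a DNA repair protein. All 3 had a wild-type replicate 3 above wild-type replicate 2 by more than 0.5, as *Aldh1a1* had, and were lower in mutants. Their differences were -1.41, -1.43 and -1.47 (limma adjusted p = 0.0108, 0.0101 and 0.00807). The genes closest to *Stra6* and *Aldh1a1* were picked by these same signals, so their like directions and sizes follow from the choice.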

How the data were processed

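RNA from whole E15 cochleas was hybridized to 4 Mouse Gene 1.0 ST Arrays (Affymetrix). The deposited values are log2 signals that the authors computed with RMA from the scanner files, which were not used here, and build mm8 is listed beside RMA in the submitters' processing notes. The study's methods name significance analysis of microarrays. It was not run here, since with 2 arrays per genotype it would draw its null from relabelings of the same 4 arrays, and limma 3.58.1 (lmFit and eBayes, R 4.3.3) was fitted over all 35556 probe sets with no covariate and no filter, leaving 2 residual and 2.91 prior degrees of freedom. The number of arrays limits the precision. Replicates of 1 genotype correlated at r = 0.993 and 0.996 across probe sets and were kept as separate samples. Arrays of different genotypes correlated at r = 0.966 to 0.971.

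Probe sets were named through the platform annotation where it gave 1 symbol (21789 of 35556, 21698 of them updated through RefSeq), and 1621 with several symbols and 12146 not named here stand for no gene. The brightest probe set over all arrays stands for a gene. Named are all 9 genes, genes of the role lists past the threshold, the core enzymes and carriers beside them, and the 3 nearest profiles of the genes with the largest rise and fall. The examples that did not pass the test were added after their values were seen. The members and lists were chosen with earlier results of these data known. Promoter sequences are RefSeq's. On simulated data for this comparison (35556 probe sets), 60 percent of 100 probe sets given a log2 change of 1 and 92 percent of 100 given a change of 2 were called, with 5 false calls. The simulation changed only these probe sets and set no shift between whole arrays, whereas 37.3 percent of probe sets passed on the real arrays. Its shares and false calls therefore do not carry over to the data. The alternatives were an intensity trend or a robust prior, quantile normalization applied again, median scaling, leaving out probe sets with a mean under 6, probe sets with 1 symbol, array weights, the mean of a gene's probe sets, a threshold of 0.1 and leaving out each array, where the lone array of a genotype is assumed to vary like the others.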

Additional observations from a re-analysis of the deposited data

How the results depend on the processing

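*Stra6*, *Crabp1* and *Cyp26b1* kept their direction and their call under all 12 alternatives with a value for them, and *Aldh1a1* under 10 of 12, with the exceptions of leaving out either mutant array. *Aldh1a2*, *Aldh1a3*, *Crabp2* and *Rarb* were called under none of the 12 and kept their sign. *Cyp26a1* turned to 0.0061 without wild-type replicate 3 (adjusted p = 0.972) and passed the threshold without wild-type replicate 2 (-0.49, adjusted p = 0.0427), and the cause was not tested. The number of the 9 genes past the threshold was 3 to 5 without an array and 4 under every other alternative. The count of other pathway genes, 36, was 23 after median scaling and 5 to 23 without an array. The count of all probe sets, 13268, was 4611 to 10895 without an array, lowest without mutant replicate 2 (4611) and mutant replicate 1 (5811). Every fit without an array had the same residual degrees of freedom, fewer than the main fit, yet these counts differed with the array left out. The fits are also unlike in the arrays that measure the spread between replicates. Without a mutant array these are the wild-type pair alone, and without a wild-type array the mutant pair alone. The SE of *Aldh1a1* was 0.36 without either mutant array and 0.10 without either wild-type array. Why the counts differed was not tested. No paired analysis was possible because no label pairs an array of 1 genotype with an array of the other. Over all 9 genes and their alternatives, 104 results kept direction and side of the threshold, 2 lost the call, 1 gained it and 1 reversed.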
